A study of Mus musculus with 18 samples.

Results

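Cav3 encodes caveolin-3, the caveolin of skeletal and cardiac muscle. Caveolins are hairpin proteins of the inner leaflet that assemble with cavins into caveolae, the small flask-shaped pits of the plasma membrane. In muscle, caveolin-3 lines the sarcolemma and the forming T-tubules and binds β-dystroglycan, it appears as myoblasts fuse, and dominant mutations in it cause limb-girdle muscular dystrophy and rippling muscle disease. Its mRNA isoforms were described here as TIF-seq2 recorded them, a method that reads where each mRNA begins together with where that same mRNA stops. The members were all isoforms in the plus strand of chromosome 6 with both ends between 112436000 and 112450500 (GRCm39). That gave 7 of 7123 isoforms in the polysome table and 6 of 6636 in the decay table, 9 distinct isoforms in all, of which 4 occurred in both tables with identical ends. The gene was selected on its coverage, TE and half-life, which were known when it was chosen, so its levels are given as a description with no test.

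The cells were primary myoblasts of wild-type (WT) female mice, from gastrocnemius muscle, fused to myotubes within 24 h under 1 µM of the ERK inhibitor SCH772984. No age was given for the mice, and all libraries shared genotype and inhibitor. Polysome profiling used cells held in 100 µg/ml cycloheximide. Its 3 gradient pools were labelled free, light (2 to 5 ribosomes) and heavy (6 or more), from 2 mice each. The decay assay used 7.5 µg/ml actinomycin D, which stops transcription, for 0, 3, 6 or 12 h, in 3 mice per time. The tables pool all 6 and all 12 libraries of an assay, so each value is a single pooled one with no error between mice. Summed coverage was 1601919 in the polysome and 3121491 in the decay table.

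The gene's identity rested on sequence. The first 68 bases that the RefSeq promoter window of Cav3 (GRCm38.p6) shares with the longest deposited leader were identical, and the gene length of 13368 nt in RefSeq equalled that implied by the deposited distances from annotated ends. No other plus-strand isoform lay near: the closest ended 129065 nt before the first Cav3 start or began 764990 nt after the Cav3 end. The labelled cell type was checked the same way. Of 20 myotube markers, 16 had a RefSeq window and 13 were matched to a locus, among them Des, Acta1, Mylpf, Tnni1 and Myog, with summed decay coverage from 2427 to 57799. None of the 4 markers of proliferating myoblasts, of 3 fibroblast markers and of 2 adipocyte markers with a window was matched. Their levels are therefore not given, since a start outside a window cannot be matched.

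All Cav3 isoforms ended at the same site, 112449832, 1 nt from the annotated end, with the same 3′ UTR of 393 nt. Of the recorded ends, only the start differed, and splicing between the ends is not given. The leaders (5′ UTRs) at 112436448, 112436486, 112436561 and 112436698 measured 325, 287, 212 and 75 nt, and their lengths differed by exactly the distance between the starts, so no intron lies between these starts. The first base of the start codon is then at 112436773 if the last 75 nt of the leader hold no intron either, which was not tested. Positions given relative to the genome past 112436698, and starts called past the start codon, rest on this, and the coordinates of the 3′ end assume that its last 30 bases are unspliced. The start sequences follow, read 5′ to 3′ on the plus strand from the deposited leaders, because the recorded ends differ only at the start. Capitals mark the first 5 transcribed bases.
325 nt leader, chr6:112436448-112436475: AGAGTaccgggaaggccaggccctggtg
287 nt leader, chr6:112436474-112436501: tggctggcagggAATGCcaggtctcctc
212 nt leader, chr6:112436549-112436576: ccatccagtcttAATTTtagcttggagg
75 nt leader, chr6:112436686-112436713: cctaagcttggtCTTTCtgcccccagga
The 75 nt leader began with C and then 4 pyrimidines, the form of a terminal oligopyrimidine start, which is best known from mRNAs of the translation machinery. That form stood at 4.94% of 5592 distinct nuclear start sites in the polysome table and at 5.20% of 5178 in the decay table. The other 3 leaders began with A.

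The longer leaders carried upstream AUGs and the 75 nt leader carried none. An upstream AUG can capture scanning ribosomes before they reach the main reading frame. The leaders of 325 and 287 nt held 4 and the leader of 212 nt held 2. The 4 sites are named by their distance in nt from the first base of the start codon, with the AUG in capitals (written as DNA).
Upstream AUG 286, chr6:112436478-112436498: tggcagggaATGccaggtctc
Upstream AUG 258, chr6:112436506-112436526: gtgaggccaATGtcctgcaca
Upstream AUG 157, chr6:112436607-112436627: gctgaagttATGcaggacagc
Upstream AUG 134, chr6:112436630-112436650: tcagccggcATGctgggtggg
All 4 upstream reading frames met a stop codon inside the leader, after 16, 15, 14 and 34 codons in this order. The last of them closed 29 nt before the start codon. The AUG at 258 lay in the frame of the caveolin-3 coding sequence and was closed by its own stop codon 210 nt ahead of it. At position -3, the main position of the Kozak context, a G stood at 286, 157 and 134 and a C at 258. In the isoform of 287 nt the AUG at 286 began at the second transcribed base. An upstream AUG occurred in 43.1% of leaders in the polysome table and in 37.3% in the decay table.

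The main start codon and the 3′ end were common to the isoforms with leaders in this stretch. The 20 bases before the start codon are shown with positions -3 to -1 in capitals, and the last 30 bases of the mRNA with the polyadenylation signal in capitals.
Before the start codon, chr6:112436753-112436772: gaaggagccccagcctcACA
3′ end, chr6:112449803-112449832: gaaggtgctgcAATAAAgggttttaactgc
An A stood at -3, as in 42.6% of polysome leaders of at least 20 nt. The AATAAA hexamer, which recruits the cleavage machinery, was followed by 13 nt. It was found in the last 40 nt of 59.6% of 3513 distinct 3′ ends in the polysome table. The 3′ UTR held no ATTTA pentamer and no Pumilio motif (written as DNA, TGTANATA), both known from unstable mRNAs. Of 6 microRNAs searched by a match to bases 2 to 8 (miR-206, miR-133b, miR-208b and miR-499 of muscle, let-7a, and miR-22, which is abundant in muscle), miR-22-3p had 1 match, at base 254 of the 3′ UTR. The microRNA (RefSeq, GRCm38.p6) is shown with its seed in capitals and the match with its complement in capitals.
mmu-miR-22-3p: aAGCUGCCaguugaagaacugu
Cav3 3′ UTR: ttccttaagaGGCAGCTagcgcaaggc
The same 7 bases occurred in 5.24% of 973 3′ UTRs of 300 to 500 nt. Because the 3′ UTR was shared, these features did not distinguish the isoforms.

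Cav3 mRNA was abundant, and most of its coverage began at 1 site. Its isoforms summed to a coverage of 5074 in the polysome table, rank 52 of 3080 nuclear loci, and of 9679 in the decay table, rank 46 of 3414. These pooled counts cannot tell more expressing cells from more RNA per cell, and coverage was not scaled by transcript length. The 75 nt leader isoform alone had a coverage of 4382 (rank 60 of 7095 nuclear isoforms) and 8709 (rank 44 of 6593). It held 86.4% of the Cav3 coverage in the polysome libraries (Wilson 95% interval 85.4 to 87.3%) and 90.0% in the decay libraries (89.4 to 90.6%). These intervals, like all below, cover counting error only. The decay libraries include those taken 3, 6 and 12 h after transcription was stopped. The polysome libraries are 3 gradient pools of unknown depth. Neither share is therefore a direct measure of how often each start was used. In loci with at least 2 isoforms and a coverage of 300, the leading isoform held a median of 88.0% (671 loci) and 86.7% (845 loci), so a dominant isoform was common. This dominant isoform was classed by the authors as having a new start site, 232 nt inside the annotated start. That class led 9.97% of loci in the polysome table and 9.84% in the decay table.

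Starts upstream of the main one gave a minority of Cav3 coverage. The 212 nt leader isoform began 95 nt inside the annotated start. It had a coverage of 474 in the polysome table, 9.34% of the gene (8.57 to 10.2%), and of 720 in the decay table, 7.44% (6.93 to 7.98%). The 325 nt leader isoform, 18 nt upstream of the annotated start, had 93 (1.83%, 1.50 to 2.24%) and 91 (0.940%, 0.766 to 1.15%). The 287 nt leader isoform, 20 nt inside the annotated start, was listed only in the polysome table, with a coverage of 13. The decay table lists isoforms from a coverage of 21 up and the polysome table from 11 up, so an isoform listed in 1 table may lie under the limit of the other. Together the 3 upstream starts gave 11.4% of polysome coverage (10.6 to 12.3%). In the decay table the 212 and 325 nt leaders together gave 8.38% (7.84 to 8.95%). The assays differ in listing limit and in actinomycin D treatment, and whether the 2 shares differ was not tested. With libraries pooled, they set 2 pools side by side and not mice.

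**Figure D1:**
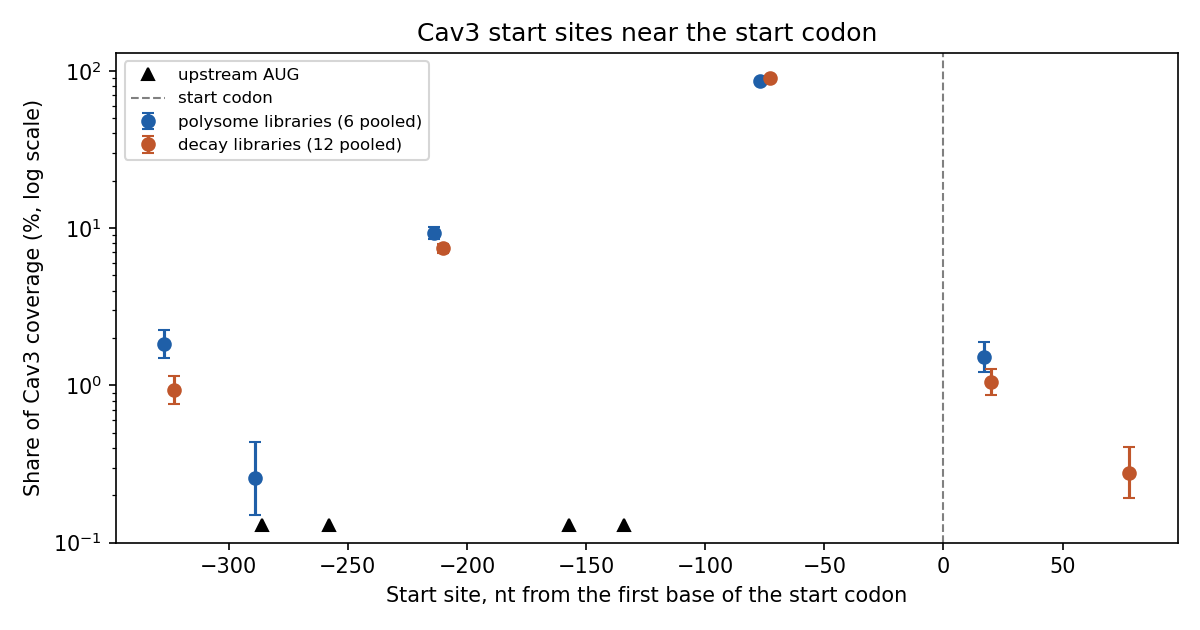
Share of Cav3 coverage (percent, log scale) by start site, in nt from the first base of the start codon, for the polysome and the decay libraries. Bars are Wilson 95% intervals of the pooled counts, triangles are upstream AUGs, and points are moved by 2 nt to the left (polysome) or right (decay); the site at -75 holds 86.4 and 90.0%, and all 4 upstream AUGs lie to its left.

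The remaining isoforms began past the start codon and cannot encode the full protein from it. In the polysome table, the isoform starting 19 nt past the first base of the start codon had a coverage of 77, and in the decay table the isoform starting at 18 nt had 102. These 2 starts lie at adjacent bases, and they were counted as distinct isoforms because their recorded ends are not identical. A start at 76 nt was listed only in the decay table, with a coverage of 27. A start at 112449175, 658 nt before the 3′ end, had a coverage of 22 and 30. All of these carried no leader sequence. The start at 112449089, with a coverage of 13 in the polysome table, carried a deposited leader of 181 nt with 2 upstream AUGs. No stretch of 12 bases of that leader occurred in the leader sequence around the main start, and the table does not say which transcript model it was read from. Together the isoforms starting past the start codon made up 2.21% of polysome coverage (1.84 to 2.65%) and 1.64% of decay coverage (1.41 to 1.92%).

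TE, the authors' value of translation for each isoform, was highest for the 75 nt leader among the 4 leaders that reach the start codon. It was 0.000985 for the 75 nt leader, 0.000722 for the 212 nt leader and 0.000644 for the 325 nt leader. The 287 nt leader had 0.000520, from a coverage of only 13, and the start at 112449089 had 0.000987, also from 13. The starts at 19 nt past the start codon and at 112449175 had no TE, like 97.7% of the 686 polysome isoforms that carry no leader. Among the 3517 nuclear isoforms that had a TE above 0 and reached a coverage of 30, the median was 0.000742 with quartiles of 0.000510 and 0.00108. The main Cav3 isoform stood at the 69.2nd percentile, with 1083 isoforms above it. The 212 nt leader stood at the 48.1st and the 325 nt leader at the 39.9th percentile. Against 157 isoforms of other loci with similar UTRs (leaders of 50 to 100 nt and 3′ UTRs of 300 to 500 nt, median TE 0.000756), the main isoform was at the 73.2nd percentile.

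Half-life did not follow that order. The authors' half-life, whose unit the table does not state, was 11.8 for the 75 nt leader, 17.8 for the 212 nt leader and 13.5 for the 325 nt leader. Starts past the start codon had 8.44 (18 nt past it), 11.9 (76 nt past it, coverage 27) and 9.10 (at 112449175, coverage 30). Nuclear isoforms had a median of 10.8 (5247 isoforms that had a half-life above 0 and reached a coverage of 30), with the 5th percentile at 6.50 and the 95th at 19.9. The main isoform was at the 61.8th percentile, the 325 nt leader at the 78.2nd and the 212 nt leader at the 92.8th, with 377 isoforms above it. The starts at 18 nt and at 112449175 were at the 19.5th and 27.0th percentile. The start at 76 nt, whose coverage of 27 was under the minimum of 30, stood at the 62.9th percentile of the same isoforms. The 212 and 325 nt leaders thus had a lower TE and a longer half-life than the 75 nt leader.

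**Figure D2:**
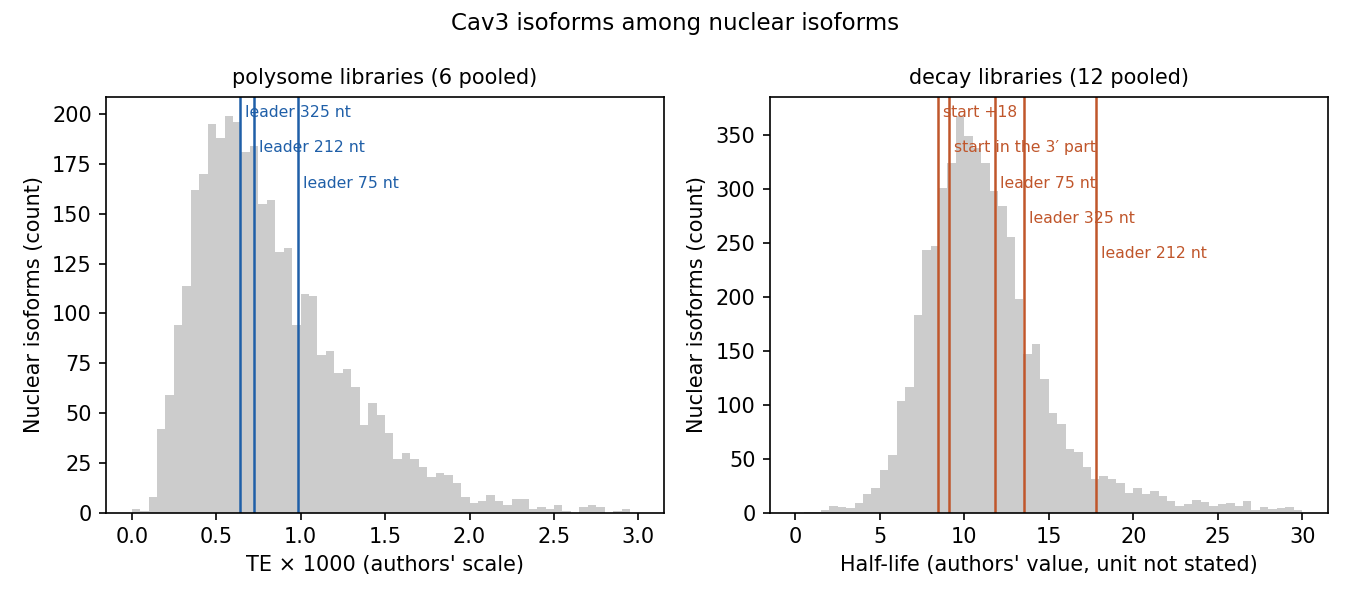
Histograms of TE (left, times 1000) and half-life (right) over nuclear isoforms that reached a coverage of 30, with lines at the Cav3 isoforms of that coverage. The 75 nt leader lies right of both longer leaders for TE and left of both for half-life; 24 TE and 75 half-life values lie beyond the axes.

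To judge the size of these differences, near-identical isoforms of other loci served as the closest thing to a repeat measurement. Such pairs shared an end and differed by under 20 nt at the 5′ end or under 50 nt at the 3′ end. Their log2 difference in TE had an SD of 0.368 over 49 loci, and that in half-life 0.847 over 96 loci. For half-life the SD was 0.437 in the 49 loci where both isoforms had a coverage of at least 60. The 212 nt leader had a log2 TE difference of -0.45 from the 75 nt leader (ratio 0.733), which is 1.22 times the SD. That of the 325 nt leader was -0.61 (ratio 0.654), or 1.67 times the SD. Between the 325 and the 212 nt leader the difference was -0.16, under the SD. At a coverage of 60 the SD for TE was 0.341 over 24 loci. The differences of the 212 and 325 nt leaders from the 75 nt leader were 1.31 and 1.80 times that SD. No Cav3 TE difference therefore reached 2 SD of near-identical isoforms. The median absolute TE difference of near-identical isoforms at a coverage of 30 was smaller than the SD, at 0.147. Each Cav3 TE difference exceeded that median, the -0.16 only just. At a coverage of 60 the median was 0.191, which the -0.16 did not reach in size.

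In half-life the 212 nt leader exceeded the 75 nt leader by 0.59 on the log2 scale, a ratio of 1.51. That was 0.699 times the SD at a coverage of 30 and 1.36 times that at 60, and these isoforms had coverages of 720 and 8709. The 325 nt leader exceeded the 75 nt leader by 0.20, or 0.235 times the SD, and differed from the 212 nt leader by -0.39 (0.464 times the SD). All 3 half-life differences were thus under the SD at a coverage of 30, while that of the 212 from the 75 nt leader exceeded the SD at 60. The median absolute half-life difference of near-identical isoforms was 0.368 at a coverage of 30 and 0.273 at 60. The 0.59 and the -0.39 exceeded both medians in size, and the 0.20 exceeded neither.

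Pairs of isoforms that share the 3′ end and differ by at least 20 nt at the start gave the background for the direction. TE was lower with the longer leader in all 3 Cav3 pairs, which share isoforms and are not independent, and in 66.5% of 716 pairs of other loci, or 61.4% with 1 pair for each of 324 loci. Half-life was lower with the longer leader in 1 of 3 Cav3 pairs and in 47.6% of 844 pairs, or 49.4% of 397 loci. In 105 other loci whose longer leader brought an upstream AUG, the median TE difference was -0.39, with quartiles of -0.67 and -0.06. The Cav3 difference of the 212 nt leader from the 75 nt leader stood at the 41.0th percentile of these loci and that of the 325 nt leader at the 28.6th. For half-life the median of 126 loci gaining an upstream AUG was 0.06, and the same 2 Cav3 differences stood at the 84.9th and 68.3rd percentile. Both Cav3 TE differences lay between the quartiles of the 105 loci. Against all 324 other loci (median -0.13, lower quartile -0.44) both lay below the lower quartile, at the 24.4th and 16.7th percentile. The 219 loci gaining no upstream AUG had a median TE difference of -0.03, with 53.0% lower. Longer additions more often brought an upstream AUG, and these groups were not matched by added length. Length and upstream AUGs were therefore not told apart.

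**Figure D3:**
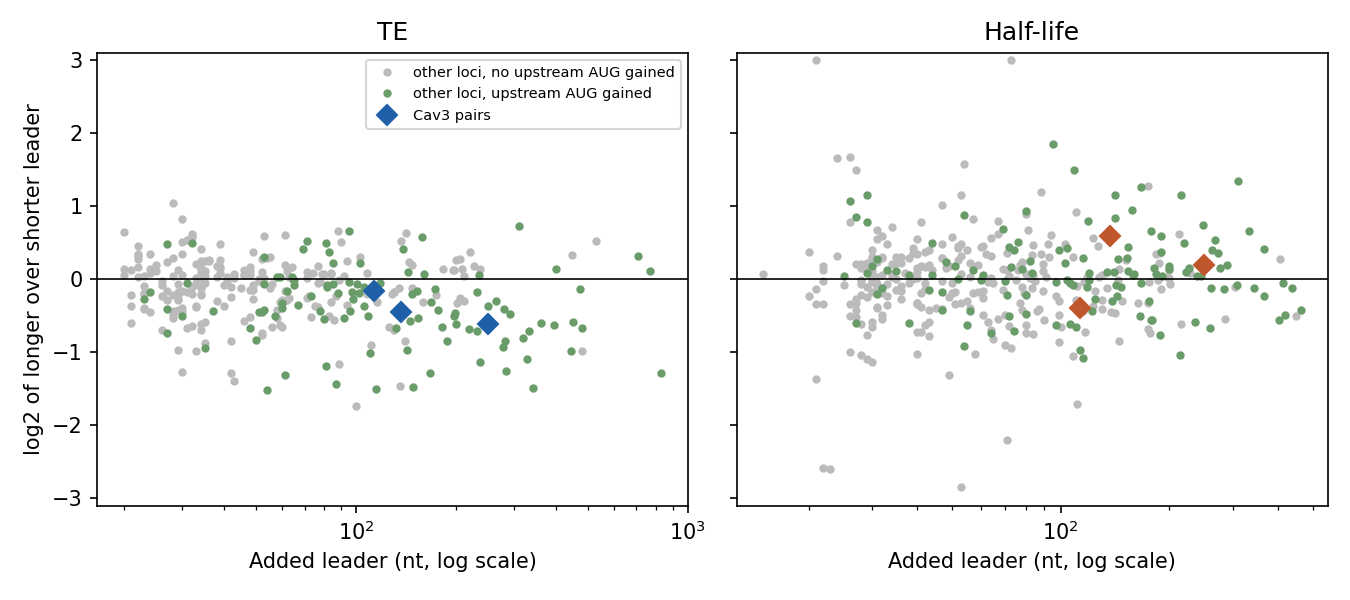
Log2 ratio of the longer over the shorter leader for TE (left) and half-life (right) against the added leader length, for isoforms that share a 3′ end; small points are other loci, 1 pair each, and diamonds are the 3 Cav3 pairs. All Cav3 points lie below 0 for TE and 1 of 3 does for half-life; 2 half-life pairs beyond the axis limits are drawn at its edge.

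The sequence between the annotated and the main start could be read from the 325 nt leader, which covers the 250 bases before the main start. The motifs below are shown because the muscle factors MyoD, myogenin and MEF2 are known to bind such letters in promoters of muscle genes. Searched on both strands from 250 bases before to 50 after the main start, CAGCTG, the E-box form of MyoD and myogenin, occurred 1 time, 74 nt upstream. The MEF2 consensus occurred 1 time, 139 nt upstream. Capitals mark the matches.
E-box, chr6:112436616-112436637: atgcaggaCAGCTGtcagccgg
MEF2 consensus, chr6:112436551-112436576: atccagtcTTAATTTTAGcttggagg
The 212 nt leader began inside the MEF2 match, 2 nt after its first base, as the start sequences above show. Among 27018 RefSeq promoter windows of the same length (GRCm38.p6, 1 per gene), 16.1% held CAGCTG and 3.26% the MEF2 consensus. The MCAT element CATTCC occurred 1 time, 214 nt upstream (14.6% of windows). TATAAA (14.2% of windows) and the CArG consensus (1.57%) were not in this window. Around the annotated start, the RefSeq window held CAGCTG 106 nt upstream and no MEF2 match. A match is a description of letters and not of binding.

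Other genes of caveolae and membrane repair were read where their locus could be matched. Of 28 listed genes, 22 had a RefSeq window and 8 were matched; Cav1 and Cav2 were not among them. In the decay table all 8 had half-lives below the nuclear median of 10.8, with a median of 9.94 for their leading isoforms. Of the 8, 5 were present in the polysome table, and 2 of these 5 had a TE above the nuclear median of 0.000742. Cavin1, the coat protein required for caveolae, had a TE of 0.000545 and a half-life of 10.2. Cavin4, the cavin of muscle, had 0.000618 and 9.91. Their summed decay coverage was 470 and 392, against 9679 for Cav3. Pacsin3, a membrane-bending F-BAR protein of muscle, was the most covered of the list, at 3316 in the decay and 2675 in the polysome table, with a TE of 0.00111 and a half-life of 8.77. Anxa2, an annexin of membrane repair, had a TE of 0.00125 and a half-life of 10.8, just under the median at the 49.7th percentile. Pfkm, the muscle phosphofructokinase known to bind caveolin-3, had 0.000426 and 9.96. Dag1, the precursor of the dystroglycan that caveolin-3 binds, was listed only in the decay table, at a coverage of 106 and a half-life of 10.2. The main Cav3 isoform, at 11.8, lay above the leading isoforms of all 8 in half-life. These differences were not tested, and half-lives of near-identical isoforms differed with an SD of 0.847 on the log2 scale.

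The myotube markers were read in the same way, with no test of their difference from this list. Of the 13 matched, 11 had a leading isoform above the nuclear median half-life and 8 above the median TE. Their medians were 12.4 and 0.000829. The exceptions in half-life were Myog, the differentiation factor myogenin, at 8.73, and Myh3, embryonic myosin heavy chain, at 7.60. By rank in coverage of both tables, TE and half-life (4 measures) over 1695 isoforms found in both, the leading isoforms of 1314 other loci were set beside the main Cav3 isoform. Nearest was Atp6v0c, the proton channel subunit of the vacuolar ATPase (distance 3.33 percentile points, TE 0.00104, half-life 11.7). Next was Tnni1, slow skeletal troponin I (5.81 points, TE 0.00104, half-life 12.0), whose leader also measured 75 nt. The third, on chromosome 10, minus strand, from 128383986 to 128384983, could not be named (6.60 points). Leader length was not among the 4 measures, and the leaders of Atp6v0c and of the third locus measured 138 and 154 nt. Likeness over 4 pooled measures is a description only.

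**Figure D4:**
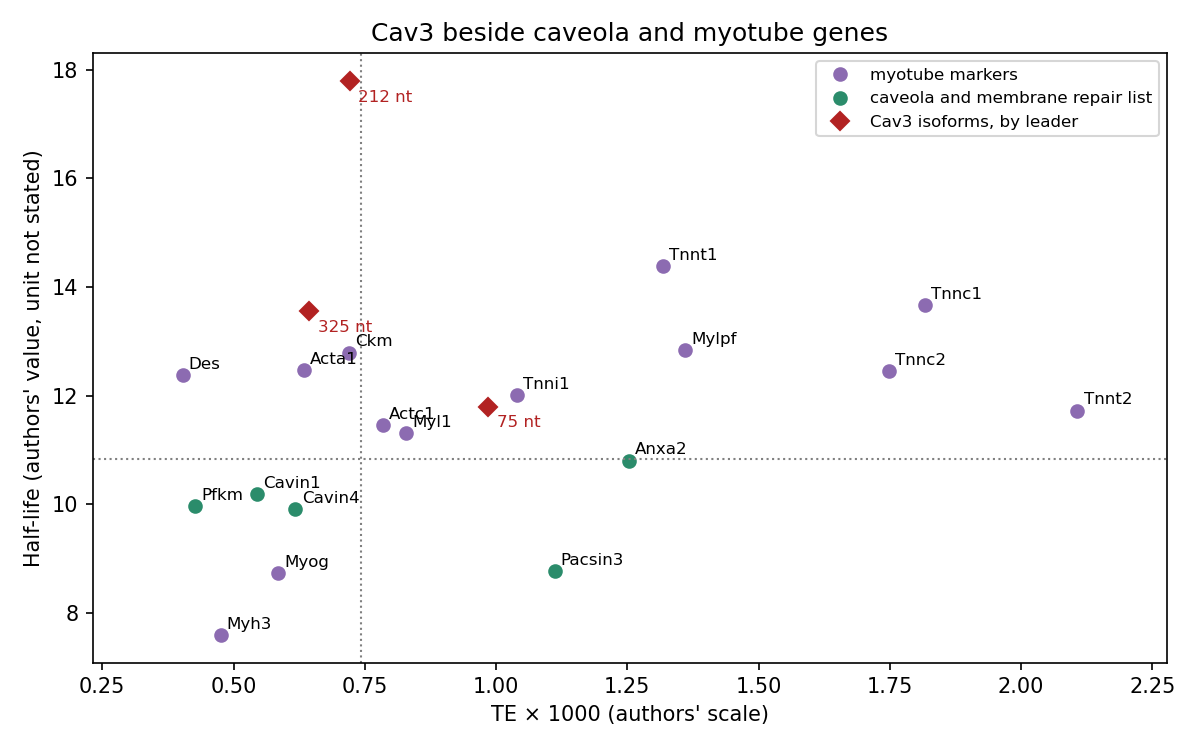
TE (times 1000) against half-life for the leading isoform of matched myotube markers and caveola and membrane repair genes with a coverage of at least 30, and for the Cav3 isoforms with leaders of 75, 212 and 325 nt. Dotted lines are the medians of nuclear isoforms; the main Cav3 isoform lies at 0.985 and 11.8, next to Tnni1, and the 5 caveola and repair genes plotted lie below the half-life median.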

How the data were processed

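Each deposited table lists isoforms by both ends, with UTR sequences, a whole-number coverage count pooled over libraries, and a score derived by the authors (TE or half-life). Per the submitters' processing notes, bcl2fastq 2.20.0, cutadapt 1.16, UMI-tools 0.5.4, STAR 2.5.3a and GRCm39 were used. The clustering of ends, the use of molecular identifiers in counting, and the formulas of TE and half-life: none is stated in those notes or in the labels. Columns holding the values of 1 library numbered 0, so depth per library is unknown.

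With Python 3.11.15, pandas 2.3.3, numpy 2.4.6 and scipy 1.17.1, ranks were taken over nuclear isoforms with a value above 0 that reached a coverage of 30. Values below 0 (58 for TE, 50 for half-life) were left out. Isoforms were joined into loci by shared ends or shared sequence beside the coding region. A locus was named where a leader shared 20 bases with the RefSeq windows of exactly 1 gene (1856 of 3972 loci; 55 matched several). The rule for named genes took Cav3, the listed genes and the 3 nearest loci, of which 2 had a name. Pair differences and their spread were tested on simulated data. Members and lists were chosen with earlier results of these data known; the comparison with similar UTRs was added after seeing the data.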

Additional observations from a re-analysis of the deposited data

How the results depend on the processing

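No paired analysis was possible because the tables hold no value per mouse, and leaving out each mouse was not run for the same reason. The TE percentile of the main Cav3 isoform (69.2) was 67.5 at a coverage minimum of 60, 67.4 with 1 isoform per locus and 73.2 among similar UTRs. Its half-life percentile (61.8) was 63.3 at a minimum of 15 or with none, 56.9 at 60 and 57.0 among similar UTRs. Its coverage share was 88.2% (polysome) and 91.2% (decay) over isoforms of both tables. The SD of near-identical half-lives was 0.437 at a minimum of 60, against 0.847. Differences between the starts at 112436448, 112436561 and 112436698 did not move under the alternatives run, since each of these had 1 isoform above every minimum. TE at a coverage of 13 and half-life at 27 to 30 rest on few counts.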
